A study of Mus musculus with 12 samples.

Results

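The genes described here encode metabotropic glutamate receptors, the receptors through which glutamate acts on G proteins instead of opening an ion channel. The 6 genes taken by symbol were Grm2, Grm3, Grm4, Grm5, Grm7 and Grm8, which are 6 of the 24531 genes and 10 of the 36779 transcripts in the deposited tables. All 6 genes had enough counts to be tested in every comparison.

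The family falls into groups I, II and III. Grm5 belongs to group I, whose receptors couple to Gq proteins, activate phospholipase C, and sit mostly around the postsynaptic density. Grm2 and Grm3 form group II, and Grm4, Grm7 and Grm8 belong to group III. Both of these groups couple to Gi and Go proteins, lower cyclic AMP, and are best known as brakes on transmitter release at presynaptic terminals, while Grm3 is also found in astrocytes. In the amygdala, receptors of all these groups have been studied for their part in the learning and extinction of fear.

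RNA was sequenced from male wild-type mice, from the basolateral nucleus of the amygdala (BLA) and from the central nucleus (CeA, which the series' own text calls CEm). The strains were C57BL/6 (B6) and 129S1/SvImJ (S1), and mice of each strain were untrained (naive), had learned fear (FC, fear conditioning) or had then gone through extinction of that fear. The series asked which genes relate to the poor fear extinction of S1 mice. There were 12 libraries, 1 for each strain in each region and condition, and the labels give neither the number of mice behind a library nor whether both regions came from the same mice. No group had a replicate, so an error below is the spread of the libraries around a fitted model, drawn by edgeR towards that of other genes. It is not a spread between mice.

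Total counts ran from 42224899 to 61695302 per library, and 3 counts equalled 0.0486 to 0.071 CPM, a unit that scales counts by the library's total. Levels are given as CPM after TMM scaling over the 12 libraries. The region labels were checked against marker genes. All 8 markers of BLA excitatory neurons were higher in BLA and all 8 CeA markers were higher in CeA in naive and conditioned mice by edgeR's adjusted p. Summed CPM of the BLA markers was 4659 to 6572 in BLA and 1313 to 2096 in CeA. The CeA markers summed to 1499 to 1705 CPM in CeA and 311 to 509 CPM in BLA. The CeA libraries also held 1006 to 1522 summed CPM of 6 striatal markers, against 190 to 352 CPM in BLA, and 5 of those 6 passed as lower in BLA. The labels do not describe the dissection, and in bulk tissue fewer cells of a type cannot be told apart from less RNA per cell.

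Grm2 and Grm3 had 1 transcript each in the tables, and the other 4 genes had a pair each. The stretches that set the variants of Grm7, Grm5 and Grm8 apart are shown because the receptors they encode differ at the intracellular tail. Bases are from the GENCODE M21 annotation of mm10, read 5′ to 3′ on the gene's own strand. The last 15 bases of the preceding exon are in lower case, and the alternative stretch is in capitals, through the stop codon where it holds one.

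Grm7 variant 2, an exon of 92 bases at chr6:111501510-111501601 on the plus strand, shown to its stop codon TAG, which ends at base 71:
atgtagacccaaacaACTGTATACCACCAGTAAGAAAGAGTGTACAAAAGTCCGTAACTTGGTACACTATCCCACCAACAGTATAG
Grm5 variant b, an in-frame exon of 96 bases at chr7:88116193-88116288 on the plus strand:
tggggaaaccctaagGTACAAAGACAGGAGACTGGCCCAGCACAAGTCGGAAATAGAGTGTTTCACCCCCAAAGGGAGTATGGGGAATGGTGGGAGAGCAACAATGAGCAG
Grm8 variant 1, a stretch of 55 bases at chr6:27285680-27285734 on the minus strand, shown to its stop codon TAA, which ends at base 50:
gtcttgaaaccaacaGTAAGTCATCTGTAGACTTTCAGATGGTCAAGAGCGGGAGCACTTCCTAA

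Variant 1 of Grm7, variant a of Grm5 and variant 2 of Grm8 lack these stretches. The assignment rests on lengths. The deposited transcripts of Grm5 differed by 96 bases, the size of the exon. Those of Grm7 differed by 178 bases, the 92 of the exon plus 86 at the 5′ end, and those of Grm8 by 126 bases, 55 plus 71 at the 5′ end.

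The genes lie on 5 chromosomes (mm10), at chr9:106644534-106656109 for Grm2, chr5:9485236-9725352 for Grm3, chr17:27422388-27503533 for Grm4, chr7:87584168-88135063 for Grm5, chr6:110645512-111567230 for Grm7 and chr6:27275121-28134369 for Grm8. No other protein-coding gene overlaps any of them in the annotation. Between 1 and 6 noncoding or predicted genes do, on the same or the opposite strand, and whether counting used strand is not given in the sources used here.

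Per length, the receptors were ordered differently in BLA and CeA. In FPKM, the authors' unit scaled for transcript length and library size, Grm2 came first, Grm5 next and Grm7 after it in 6 of 6 BLA libraries. In CeA Grm5 came first and Grm7 next in 6 of 6 libraries, Grm8 came next to last in all 6 and Grm2 last in all 6. The middle places were less fixed, since Grm3 and Grm4 each held the third place in 3 CeA libraries, and Grm3 and Grm8 exchanged places among the BLA libraries.

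Grm2 reached a median of 28.6 FPKM in BLA (range 25.7 to 32.2) and 2.67 FPKM in CeA (range 1.80 to 5.39). Grm5 had a median of 23.2 FPKM in BLA (range 18.2 to 27.4) and 31.5 FPKM in CeA (range 28.1 to 37.9). Grm7 had medians of 15.6 FPKM in BLA and 17.6 FPKM in CeA. The other 3 genes lay lower, with medians in BLA and CeA of 10.5 and 12.05 FPKM for Grm3, 7.05 and 12.5 FPKM for Grm4, and 9.88 and 5.22 FPKM for Grm8. Summed over the 6 genes, the level was 84.4 to 106 FPKM in BLA and 77.2 to 89.0 FPKM in CeA, so the totals of the regions overlapped. The share of the sum did not overlap between regions for 5 of the 6 genes, and that of Grm3 did, at 8.90% to 13.0% in BLA and 11.7% to 17.4% in CeA. Shares of this sum depend on each other, so a lower share of Grm2 in CeA raises the others there. Grm7 had shares of 15.9% to 17.7% in BLA and 20.5% to 22.4% in CeA. Its level overlapped, at 65.7 to 80.1 CPM in BLA and 69.1 to 85.5 CPM in CeA. The count of separated shares was not compared with other genes and does not count genes that differ in level between the regions. Grm2 supplied 28.4% to 32.2% of that sum in BLA and 2.03% to 6.34% in CeA. Grm5 supplied 20.5% to 27.6% of it in BLA and 36.4% to 42.8% in CeA.

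**Figure D1:**
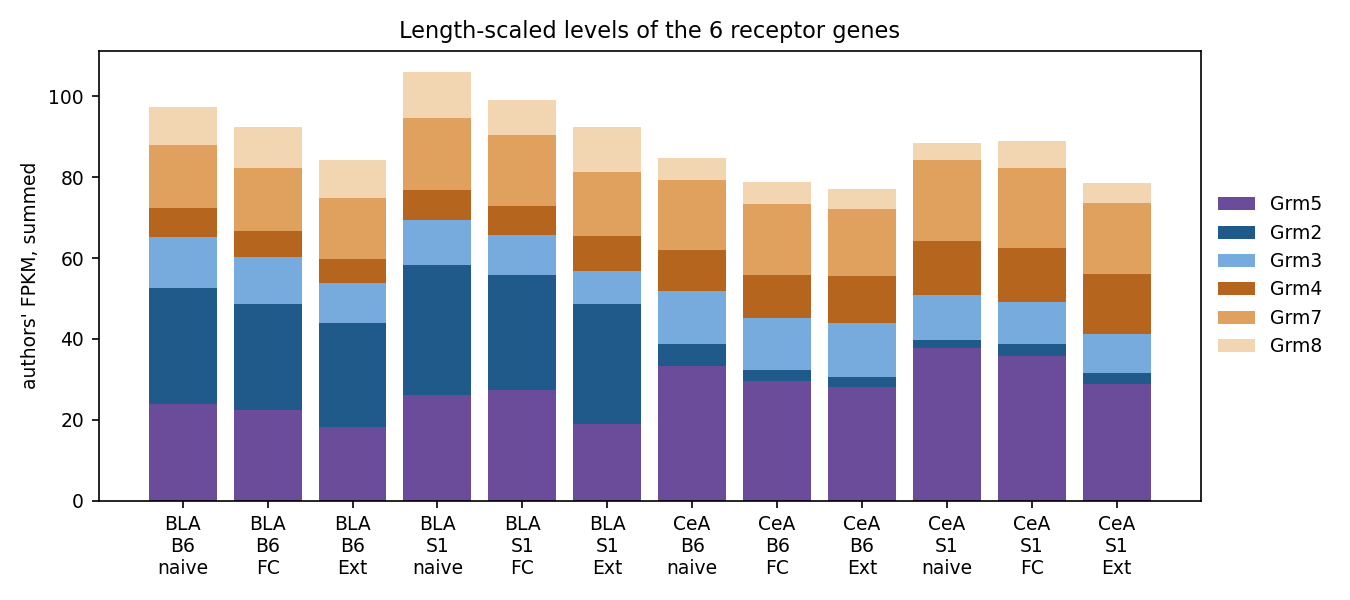
Stacked bars of the authors' FPKM for the 6 receptor genes in each of the 12 libraries, with the summed FPKM on the vertical axis (FC, fear conditioning; Ext, extinction). The dark blue Grm2 segment makes up 28.4% to 32.2% of the bar in the 6 BLA libraries and 2.03% to 6.34% in the 6 CeA libraries.

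The comparison of BLA with CeA asks which receptors differ between the nucleus that receives sensory input and the nucleus that sends output. In the 8 libraries of naive and conditioned mice, fitted with an additive model, 4 of the 6 genes passed edgeR's adjusted p of 0.05, with Grm2 and Grm8 higher and Grm4 and Grm5 lower in BLA. Of all 16274 genes tested, 46.6% passed, 23.2% as higher and 23.4% as lower, so the count of receptors called is close to the share among genes at large. With limma on log2(FPKM + 1) the genes called were split 2866 higher and 5270 lower in BLA, where edgeR had 3778 and 3809. The Grm2 difference was large beside those of other genes, since 144 of the 16274 genes (0.885%) had a larger excess in BLA.

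Grm2, the group II autoreceptor of glutamatergic terminals, was 9.96-fold higher in BLA. In B6 BLA it stood at 102 CPM in naive, 92.4 CPM in conditioned and 88.9 CPM in extinction mice, and in S1 BLA at 115, 101 and 102 CPM in the same order. In B6 CeA it stood at 17.3, 8.45 and 7.88 CPM, and in S1 CeA at 5.99, 10.04 and 8.87 CPM. The lowest BLA library was thus above the highest CeA library. The log2 fold change was 3.32 ± 0.28 (SE, 8 libraries, edgeR adjusted p = 3.5e-05) in naive and conditioned mice. In extinction mice it was 3.53 ± 0.08 (4 libraries, edgeR adjusted p = 0.000503), where 36.3% of all genes passed. The extinction fit had 1 residual degree of freedom. Its errors, for Grm2 and for the genes below, are therefore drawn most strongly towards the variance trend of all genes.

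Relative to its mean, Grm2 was spread more widely in CeA (5.99 to 17.3 CPM) than in BLA (88.9 to 115 CPM). The CeA library with the most Grm2, that of naive B6 mice, was also highest for 4 of the 8 BLA excitatory markers shown here, which were picked after their values were seen. It was not highest for the whole list, whose summed level was 1499 CPM in that library and 1313 to 2096 CPM over the 6 CeA libraries, with conditioned S1 CeA highest. In naive B6 mice the CeA level of Grm2 was 17.0% of the BLA level, and the vesicular glutamate transporter gene Slc17a7 stood at 8.996%. In naive S1 mice the corresponding values were 5.21% for Grm2 and 0.820% for Slc17a7. The other 4 pairs gave 8.66% to 9.97% for Grm2 and 0.649% to 4.72% for Slc17a7. Neurod6, Rspo2 and Tbr1, which mark cortex-like excitatory neurons, were likewise highest in the naive B6 CeA library, at 11.99%, 11.8% and 9.88% of their BLA level. Without that library the Grm2 log2 fold change was 3.69 (edgeR adjusted p = 1.18e-05). The part of these markers in the CeA level of Grm2 was not tested.

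**Figure D2:**
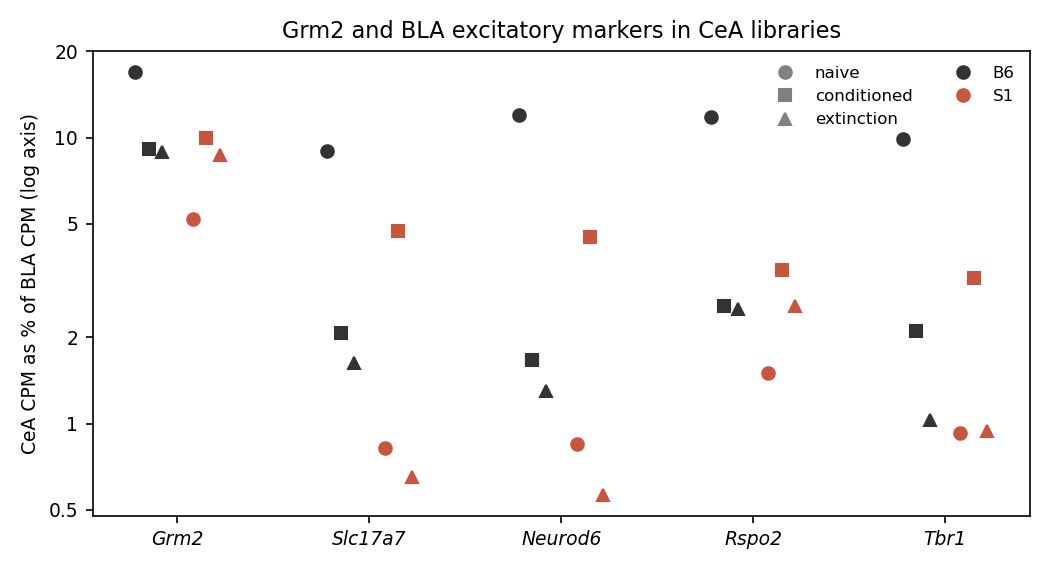
CeA level as a percentage of the BLA level of the same strain and condition (log axis) for Grm2 and 4 of the 8 markers of BLA excitatory neurons, 1 point per pair of libraries. The naive B6 pair is highest for all 5 genes, and Grm2 stays at 5.21% or above while Slc17a7 falls to 0.649%.

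Grm8, a group III receptor of presynaptic terminals, was 1.97-fold higher in BLA. Its levels in BLA were 36.5, 39.3 and 36.1 CPM in naive, conditioned and extinction B6 mice and 44.3, 34.3 and 42.1 CPM in S1 mice. In CeA they were 19.5, 19.1 and 17.7 CPM in B6 and 15.5, 24.3 and 17.7 CPM in S1. The regions did not overlap. The log2 fold change was 0.98 ± 0.14 in naive and conditioned mice (edgeR adjusted p = 0.000732) and 1.15 ± 0.09 in extinction mice (edgeR adjusted p = 0.00211).

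Grm4, another group III receptor, went the other way and was 1.55-fold higher in CeA. In BLA it stood at 30.1, 27.6 and 24.7 CPM in naive, conditioned and extinction B6 mice and at 32.3, 29.8 and 35.2 CPM in S1 mice. In CeA it stood at 38.2, 41.3 and 45.5 CPM in B6 and at 53.5, 53.5 and 58.1 CPM in S1. Every CeA library was above every BLA library, with S1 CeA highest. The striatal markers given above were higher in CeA too, and their part in this difference was not tested. The log2 fold change was -0.63 ± 0.08 (edgeR adjusted p = 0.000494) and, in extinction mice, -0.79 ± 0.08 (edgeR adjusted p = 0.0038).

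Grm5, the group I receptor, was 1.27-fold higher in CeA. Its levels in BLA were 217, 202 and 161 CPM in naive, conditioned and extinction B6 mice and 239, 248 and 167 CPM in S1 mice. In CeA they were 273, 244 and 234 CPM in B6 and 323, 308 and 241 CPM in S1. The ranges of the regions met, because the naive and conditioned S1 BLA libraries exceeded the lowest CeA library, yet CeA was higher in 6 of 6 pairs of the same strain and condition. The log2 fold change was -0.35 ± 0.05 (edgeR adjusted p = 0.00096) and, in extinction mice, -0.52 ± 0.06 (edgeR adjusted p = 0.00469).

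Grm3 and Grm7 were not separated by region at the gene level. Grm3, the group II receptor also found in astrocytes, had a log2 fold change of 0.03 ± 0.06 (edgeR adjusted p = 0.683) in naive and conditioned mice and -0.24 ± 0.08 (edgeR adjusted p = 0.0825) in extinction mice. Grm7, a group III receptor of the presynaptic active zone, had -0.08 ± 0.05 (edgeR adjusted p = 0.193) and -0.07 ± 0.07 (edgeR adjusted p = 0.466). With limma on log2(FPKM + 1), which moved the median of all genes to -0.08, the naive and conditioned value was -0.069 for Grm3 and -0.17 for Grm7 (limma adjusted p = 0.285 and 0.015). In levels over all 12 libraries, 3 of the 6 genes (Grm2, Grm4 and Grm8) had no overlap between BLA and CeA, against 27.1% (14.1% higher and 13.0% lower in BLA) of the 16523 genes tested over the 12 libraries. The 4 calls of naive and conditioned mice passed in each of the 8 fits that left out 1 library.

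**Figure D3:**
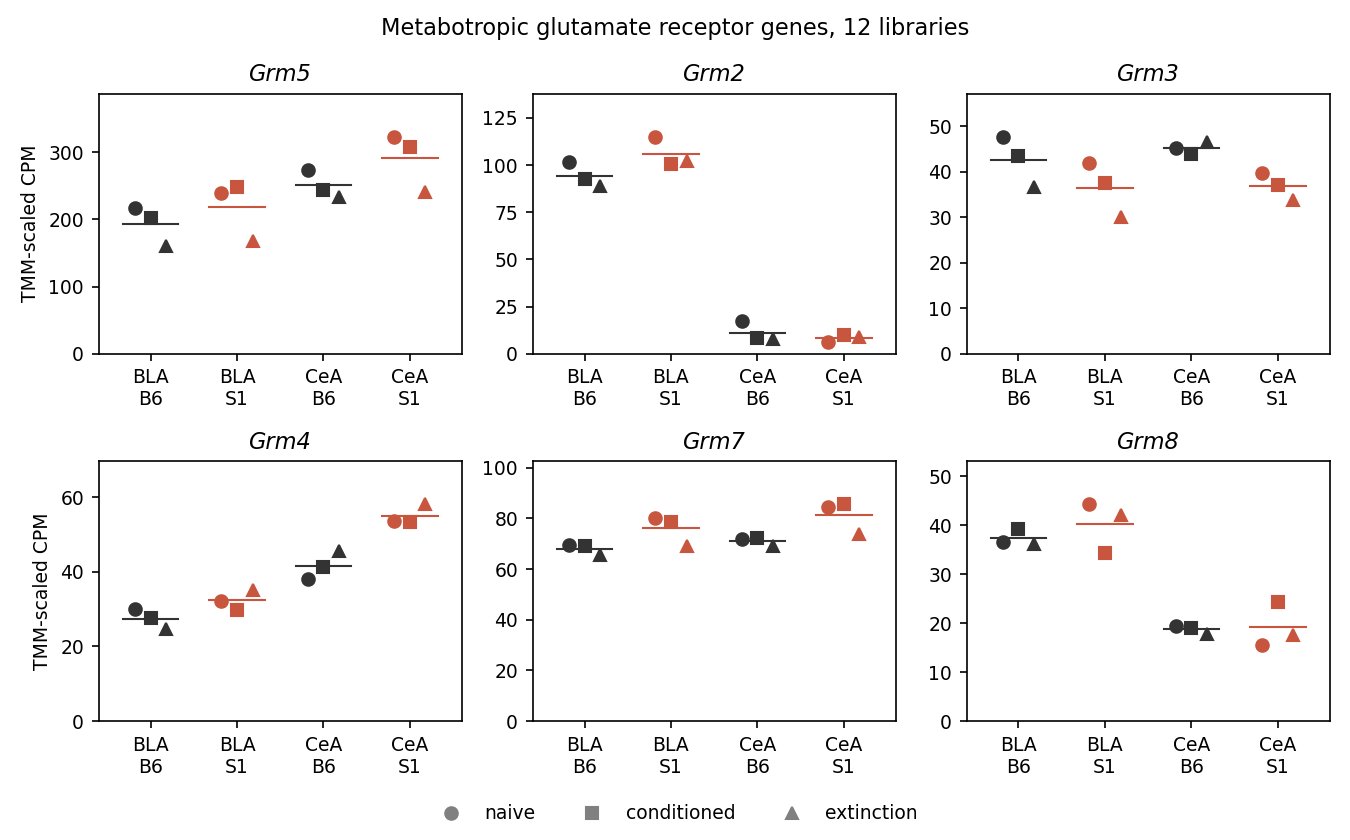
TMM-scaled CPM of each receptor gene in the 12 libraries, by region and strain, with a marker shape for each condition and a line at the mean of the 3 libraries of a strain and region. Grm2 and Grm8 sit higher in BLA and Grm4 higher in CeA with no overlap, while Grm3 and Grm7 overlap between regions.

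Grm7 had like totals in BLA and CeA, but its transcripts differed between them. Variant 2, the form with the 92-base exon, had 9.09 to 14.98 CPM in the BLA libraries and 28.4 to 36.2 CPM in the CeA libraries. Variant 1, the form without it, had 51.7 to 66.5 CPM in BLA and 38.0 to 54.2 CPM in CeA. Transcript counts put variant 2 2.72-fold higher in CeA (log2 fold change -1.44 ± 0.08, edgeR adjusted p = 0.00061) and variant 1 1.34-fold higher in BLA (0.43 ± 0.05, edgeR adjusted p = 0.00541). Both passed in all 8 fits that left out 1 library.

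As a share of the gene's counts, variant 2 made up 18.4%, 13.2% and 21.3% in BLA of naive, conditioned and extinction B6 mice and 17.4%, 15.6% and 21.6% in S1. In CeA it made up 46.0%, 39.3% and 45.0% in B6 and 42.9%, 36.6% and 40.6% in S1. The shares of the regions did not overlap. The medians were 23.8 percentage points apart, where the median absolute difference over 12161 transcripts was 2.41 points and 398 of them (3.27%) differed by as much or more. Shares without overlap between the regions were found for 2.93% of those transcripts, 1.41% with the larger share in BLA and 1.52% with the larger in CeA. The test of the share itself, which fits each transcript against the others of its gene, gave a log2 difference of -1.35 ± 0.12 with an unadjusted p = 0.000298 and an edgeR adjusted p = 0.0509, which misses the threshold that 0.555% of transcripts passed. Counts of transcripts of 1 gene are estimates that divide shared reads, so the shares carry an error beyond counting that these files do not give.

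In transcript counts, 7 of the 10 receptor transcripts passed for region, 4 higher and 3 lower in BLA, against 21.5% of 24539 transcripts (11.3% higher and 10.2% lower). Both variants of Grm8 were higher in BLA, by 2.08-fold for variant 1 (edgeR adjusted p = 0.0211) and 1.83-fold for variant 2 (edgeR adjusted p = 0.0371), and these are the least firm of the 7, passing in 2 and 1 of the 8 fits that left out 1 library. Grm5 variant b, with the 96-base exon, was 1.27-fold higher in CeA (edgeR adjusted p = 0.0151) and passed in 5 of those 8 fits. The other calls were the only transcript of Grm2 and variant 1 of Grm4, which held at least 98.3% of the Grm4 counts in every library. Variant 2 of Grm4 had 0 to 25 counts. No receptor transcript passed between strains, against 3.06% of all transcripts, or for conditioning, where 0% passed.

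Grm5 variant a was the minor form in every library but its share was uneven. It made up 12.3%, 19.0% and 18.8% of Grm5 counts in BLA of naive, conditioned and extinction B6 mice, and 10.9%, 22.3% and 17.0% in S1. In CeA it made up 20.2%, 17.5% and 24.8% in B6 and 5.91%, 23.4% and 11.8% in S1. The conditioned libraries exceeded the naive ones in 3 of the 4 pairs, B6 CeA being the exception. The share test gave a conditioning difference of 0.81 ± 0.31 on the log2 scale with an unadjusted p = 0.028 and an edgeR adjusted p = 1, where 0.0925% of transcripts passed. Between strains no receptor transcript passed for its share either, against 0.671%. Variant 2 of Grm8 ranged from 24.1% to 49.6% of its gene's counts, with the regions overlapping.

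**Figure D4:**
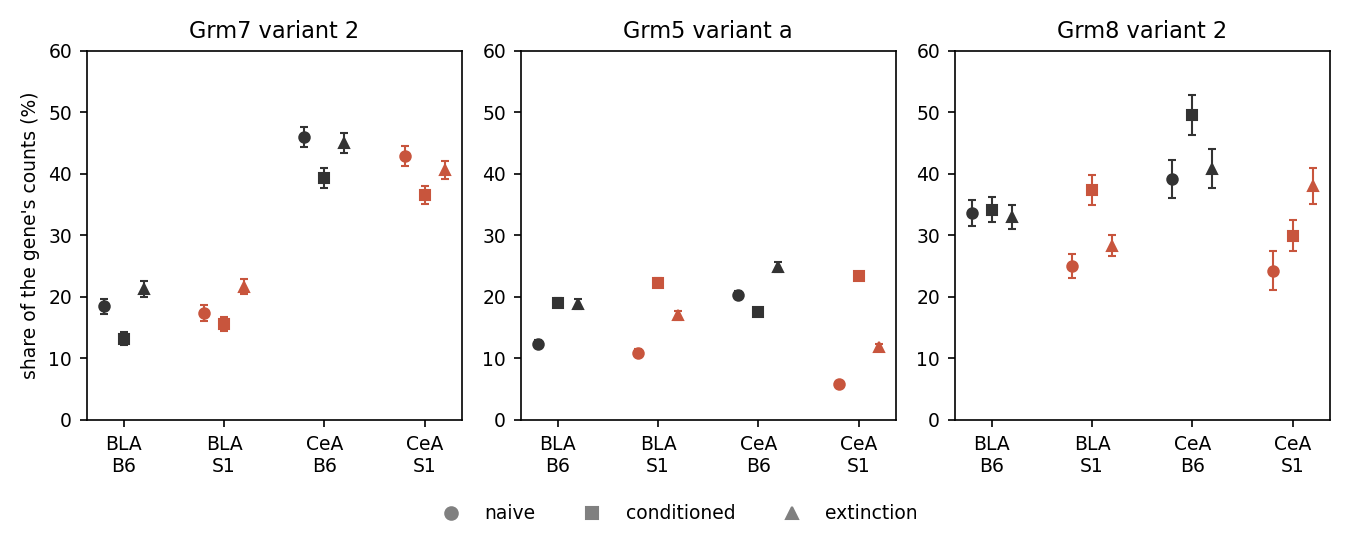
Share of the gene's counts held by Grm7 variant 2, Grm5 variant a and Grm8 variant 2 in each library (percent), with 95% Wilson binomial intervals that cover counting error only. Grm7 variant 2 lies between 13.2% and 21.6% in BLA and between 36.6% and 46.0% in CeA, while the other 2 overlap between regions.

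The comparison of S1 with B6 asks which receptors differ between the strain with impaired fear extinction and B6. In naive and conditioned mice 4 of the 6 genes passed edgeR's adjusted p of 0.05, against 22.8% of all genes (12.4% higher and 10.4% lower in S1). The edgeR calls were 2021 higher and 1691 lower, and those of limma on log2(FPKM + 1) 1396 and 2114. Grm4, Grm5 and Grm7 were higher and Grm3 was lower in S1, each by 1.15 to 1.21-fold. These are small differences that depend on single libraries: of the 8 fits that left out 1 library, all 4 genes passed in 1, and the count fell to 0 without either the conditioned B6 CeA or the naive S1 CeA library, as given with the other settings at the end.

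Grm5 was 1.199-fold higher in S1 (0.26 ± 0.05 on the log2 scale, edgeR adjusted p = 0.0125) and higher in 6 of 6 pairs of the same region and condition, by 1.03 to 1.26-fold. With a trend of the strain effect with transcript length removed, its log2 fold change was -0.01 (edgeR adjusted p = 0.972). Grm5 has the longest transcripts of the family, of 8428 and 8524 bases against 3204 to 4359 in the others. Whether length stands behind the difference was not tested.

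Grm7 was 1.17-fold higher in S1 (0.23 ± 0.05, edgeR adjusted p = 0.0153) and higher in 6 of 6 pairs. Its levels in BLA were 69.5, 68.9 and 65.7 CPM in naive, conditioned and extinction B6 mice and 80.1, 78.7 and 69.3 CPM in S1. In CeA they were 71.6, 72.2 and 69.1 CPM in B6 and 84.5, 85.5 and 73.8 CPM in S1. Naive and conditioned S1 libraries stood above all B6 libraries, and the extinction S1 libraries lay closer to B6. The log2 fold change was 0.16 with the length trend removed (edgeR adjusted p = 0.0395).

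Grm4 was 1.21-fold higher in S1 (0.28 ± 0.08, edgeR adjusted p = 0.0488) and higher in 6 of 6 pairs, by 1.07 to 1.42-fold. In CeA the 3 S1 libraries, at 53.5 to 58.1 CPM, lay above the 3 B6 libraries, at 38.2 to 45.5 CPM, while in BLA the strains overlapped. The strain gap in BLA minus that in CeA was -0.31 ± 0.13 on the log2 scale (unadjusted p = 0.0472, edgeR adjusted p = 0.573), so a difference of the gap between regions did not pass. With the length trend removed the strain effect was 0.22 (edgeR adjusted p = 0.0747).

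Grm3 was 1.15-fold lower in S1 (-0.20 ± 0.06, edgeR adjusted p = 0.0368) and lower in 6 of 6 pairs. Its levels in BLA were 47.7, 43.6 and 36.6 CPM in naive, conditioned and extinction B6 mice and 41.9, 37.4 and 30.2 CPM in S1. In CeA they were 45.2, 44.0 and 46.6 CPM in B6 and 39.7, 37.1 and 33.8 CPM in S1. The strains did not overlap in CeA and overlapped in BLA. With the length trend removed the log2 fold change was -0.23 (edgeR adjusted p = 0.0185).

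Most markers of astrocytes, oligodendrocytes and microglia moved the same way as Grm3 in naive and conditioned mice, where 10.4% of all genes were lower in S1. Of 8 astrocyte markers, 5 were lower and 0 higher in S1 by edgeR's adjusted p, led by Gfap (-1.68 ± 0.17, edgeR adjusted p = 0.000659), and their summed level was 1135 to 1458 CPM in B6 and 972 to 1306 CPM in S1, with none at 0. All 6 oligodendrocyte markers were lower in S1, and summed to 2944 to 4666 CPM in B6 and 1619 to 3957 CPM in S1. Microglial markers were lower in S1 for 3 of 5 genes, and markers of oligodendrocyte precursors for 1 of 4 (median log2 fold change -0.06). Markers of endothelial and mural cells, which are not glia, were lower in S1 for 2 of 4 and higher for 0 (median -0.26). With 1 library left out, 1 to 2 of these vascular markers were lower. With 1 library left out the counts were 2 to 5 for astrocytes (2 without conditioned B6 CeA, 3 without naive S1 CeA or conditioned S1 BLA), 3 to 6 for oligodendrocytes (3 without naive or conditioned S1 CeA) and 1 to 3 for microglia, where 3 passed only without naive B6 BLA and 2 without naive B6 CeA or conditioned S1 CeA. In extinction mice 1 of the 8 astrocyte markers passed as lower in S1, against 1.0% of all genes. Of the oligodendrocyte, precursor, microglial and vascular markers 0 passed there. The part of these glial and vascular markers in the Grm3 difference was not tested.

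Over the 12 libraries no receptor gene separated the 6 S1 from the 6 B6 libraries, against 5.85% of all genes (2.09% higher and 3.75% lower in S1). Within CeA 3 of the 6 genes did (Grm4 and Grm7 higher, Grm3 lower), against 30.5% of all genes (14.8% higher and 15.7% lower), and within BLA 0 did, against 21.4% (9.29% higher and 12.1% lower). Grm2 and Grm8 did not pass between strains, with log2 fold changes of -0.20 ± 0.26 (edgeR adjusted p = 0.606) and 0.06 ± 0.14 (edgeR adjusted p = 0.79). The sign of Grm2 turned to 0.09 without the naive B6 CeA library and to 0.07 without the naive S1 CeA library, the highest and the lowest CeA libraries. The sign of Grm8 turned too, to -0.078 without naive S1 BLA, to -0.10 without conditioned S1 CeA and to -0.0065 with limma on log2(FPKM + 1). Reads of S1 mice were set against mm10, which is built from B6, and how many were lost to sequence differences was not measured.

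In extinction mice no receptor gene passed between strains by edgeR, against 1.64% of all genes, in a fit with 1 residual degree of freedom. The largest differences were again Grm4, at 0.43 ± 0.08 on the log2 scale (unadjusted p = 0.0037, edgeR adjusted p = 0.106), and Grm3, at -0.37 ± 0.08 (unadjusted p = 0.0078, edgeR adjusted p = 0.148). Grm2 stood at 0.19 ± 0.07 (edgeR adjusted p = 0.33) and the other 3 between 0.05 and 0.11. DESeq2 called 1 receptor gene here, Grm4, at 0.44.

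**Figure D5:**
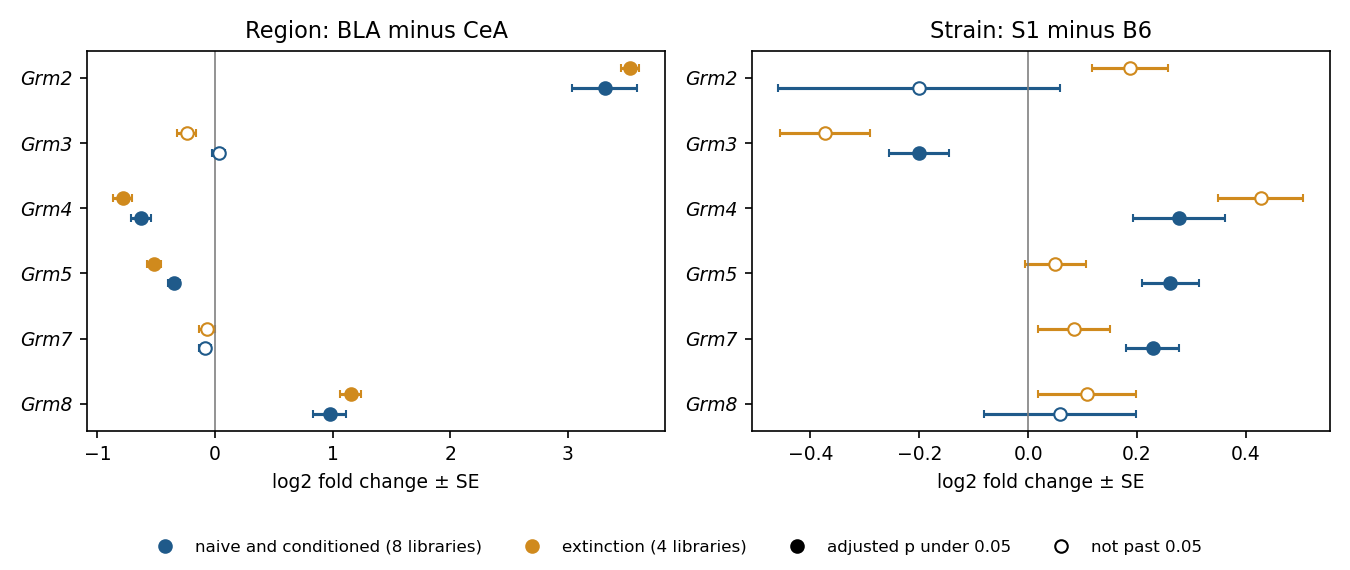
Log2 fold change ± SE of each receptor gene for region (BLA minus CeA) and strain (S1 minus B6), fitted by edgeR in the 8 naive and conditioned libraries and in the 4 extinction libraries; filled points passed an adjusted p of 0.05. Grm2 stands at 3.32 and 3.53 for region, while every strain effect lies between -0.37 and 0.43.

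Fear conditioning moved no receptor gene past the threshold. No gene of the 16274 tested passed by edgeR (0%), 571 had an unadjusted p under 0.05, and DESeq2 called 21. Grm3 had a log2 fold change of -0.11 ± 0.06 (edgeR adjusted p = 0.999), and the other 5 genes ranged from -0.22 ± 0.26 for Grm2 to 0.08 ± 0.14 for Grm8. Grm3 was lower in 4 of 4 pairs, but how many of all genes kept 1 direction in 4 of 4 pairs is not given here.

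The libraries gave no call for a receptor gene in any comparison of differences. For strain and conditioning the largest was Grm2, at 0.78 ± 0.47 (edgeR adjusted p = 1; 0% of genes called, 293 at an unadjusted p under 0.05, 9 by DESeq2). For region and conditioning it was Grm8, at -0.44 ± 0.25 (edgeR adjusted p = 0.745; 0.0184% called). For strain and region it was Grm2, at 0.79 ± 0.46 (edgeR adjusted p = 0.64; 0.0307% called).

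Extinction was deposited in separate tables, so it was tested against the other conditions only through gaps within a table. Levels, overlaps and profiles described over the 12 libraries cannot tell the extinction condition apart from its table. For the strain gap the change was largest for Grm2, at 0.41 ± 0.41 (edgeR adjusted p = 0.892; 0% called, 738 at an unadjusted p under 0.05, 26 by DESeq2). For Grm5 it was -0.20 ± 0.10 and for Grm7 -0.13 ± 0.07 (edgeR adjusted p = 0.888 for each), which did not pass. The change of the region gap was largest for Grm3, at -0.30 ± 0.11 (unadjusted p = 0.0178, edgeR adjusted p = 0.52; 0.0121% called).

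Genes that work with the receptors were read from lists of pathway genes. Of 18 partners of group I receptors, 8 were higher and 0 lower in S1 in naive and conditioned mice (median log2 fold change 0.27, against 0.00 over all genes, of which 12.4% were higher and 10.4% lower). They were led by the postsynaptic scaffold genes Shank1 (0.66 ± 0.20, edgeR adjusted p = 0.0485) and Shank2 (0.64 ± 0.19, edgeR adjusted p = 0.0435). The phospholipase C gene Plcb4 (0.47 ± 0.11, edgeR adjusted p = 0.0192) and the inositol trisphosphate receptor gene Itpr1 (0.38 ± 0.06, edgeR adjusted p = 0.00588) followed. This count depends on the processing: with the length trend removed 1 gene was higher and 1 lower (median 0.08), and with limma on log2(FPKM + 1) 5 were higher and 2 lower. Leaving out 1 library gave 2 higher genes without either conditioned B6 library, 3 without naive B6 CeA, 5 without any 1 of naive S1 BLA, naive S1 CeA and conditioned S1 BLA, 6 without conditioned S1 CeA and 10 without naive B6 BLA. In extinction mice 0 of the 18 passed between strains (median 0.05).

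Between regions 6 genes of this list were higher and 3 lower in BLA (median 0.16, against -0.01 over all genes), so that 9 of 18 passed, near the 46.6% of all genes that did. Ncdn, which encodes the neuronal protein neurochondrin, was lower in BLA (log2 fold change -1.65 ± 0.08, edgeR adjusted p = 3.36e-06). Shank1 (1.18 ± 0.20, edgeR adjusted p = 0.00176), Grasp (0.94 ± 0.05, edgeR adjusted p = 5.9e-06), a scaffold that binds group I receptors, and the cation channel gene Trpc5 (0.71 ± 0.08, edgeR adjusted p = 0.000191) were higher.

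Of 20 partners of group II and III receptors, 15 were higher and 2 lower in BLA (median log2 fold change 0.50), against 23.2% higher and 23.4% lower of all genes (median -0.01). The potassium channel genes Kcnj6 (2.52 ± 0.30, edgeR adjusted p = 0.00024) and Kcnj9 (1.33 ± 0.09, edgeR adjusted p = 1.42e-05), whose channels open on Gi signalling, were higher in BLA. Of the adenylyl cyclases, Adcy1 was higher in BLA (2.08 ± 0.08, edgeR adjusted p = 2.04e-06) and Adcy5, the main form of striatal neurons, was lower (-1.23 ± 0.08, edgeR adjusted p = 1.03e-05). Between strains 2 of the 20 passed (22.8% of all genes did), both higher in S1, namely Grip1 (0.51 ± 0.09, edgeR adjusted p = 0.00637), a scaffold gene, and Adcy9 (0.28 ± 0.08, edgeR adjusted p = 0.0496). Leaving out 1 library gave 1 to 4 higher genes here, with 4 without naive B6 BLA, 2 without naive S1 BLA and 1 without any other.

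Of 9 genes for desensitization, 3 were higher and 4 lower in BLA (median log2 fold change 0.05), where 23.2% of all genes were higher and 23.4% lower (median -0.01). Rgs14 (-1.29 ± 0.07, edgeR adjusted p = 4.5e-06) and Rgs2 (-1.17 ± 0.12, edgeR adjusted p = 0.000106), regulators of G protein signalling, and the receptor kinase gene Grk5 (-0.97 ± 0.11, edgeR adjusted p = 0.000179) were lower, while Rgs7 was higher (0.57 ± 0.07, edgeR adjusted p = 0.000269). In S1 mice 1 of the 9 passed, where 12.4% of all genes were higher and 10.4% lower. It was Grk5, which was higher (0.39 ± 0.11, edgeR adjusted p = 0.0347). No gene of this list passed as higher with limma on either FPKM scale, or without any 1 library other than naive B6 BLA, whose removal gave 3.

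Of 12 genes for the supply and clearance of glutamate, 7 were higher and 2 lower in BLA (median 0.52), beside the same 23.2% and 23.4% of all genes (median -0.01). Slc17a7 (4.66 ± 0.67, edgeR adjusted p = 0.000743) and Slc17a6 (2.82 ± 0.54, edgeR adjusted p = 0.00332), which load glutamate into vesicles, were highest. Between strains 3 were higher and 2 lower in S1, where 12.4% of all genes were higher and 10.4% lower. The count of higher genes was 0 with the length trend removed, and 0 to 1 without any 1 library other than naive B6 BLA, whose removal gave 4. The higher ones were the glutamine transporter gene Slc38a1 (0.32 ± 0.09, edgeR adjusted p = 0.0311), the cystine and glutamate exchanger gene Slc7a11 (0.25 ± 0.07, edgeR adjusted p = 0.0372) and the neuronal glutamate transporter gene Slc1a1 (0.23 ± 0.06, edgeR adjusted p = 0.0313). The lower ones were the astrocyte transporter gene Slc1a3 (-0.26 ± 0.05, edgeR adjusted p = 0.0143) and the glutamine synthetase gene Glul (-0.22 ± 0.07, edgeR adjusted p = 0.0447). Glul was named after its value was seen, to complete the count of 5, and Slc1a3 is also 1 of the astrocyte markers above. The count of lower genes was 0 without conditioned B6 CeA, naive S1 CeA or conditioned S1 BLA, 2 without conditioned S1 CeA and 1 without any other library.

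For the 4 receptor genes whose log2 CPM spanned at least 1 over the 12 libraries, genes of similar profile were ranked among 13259 genes. The ranking used the root mean square difference of centred log2(CPM + 0.5), as a description with no test. The added 0.5 narrows fold differences where CPM is low. Grm2 was closest to Wnt9a, Cpne9 and Cabp7 (differences of 0.172, 0.195 and 0.214). These 3 genes averaged 13.8, 20.6 and 17.4 CPM in BLA and only 0.824, 1.33 and 1.55 CPM in CeA. Their closeness to Grm2 therefore depends on the added 0.5. Grm8 was closest to Catip, Hdac10 and Rara (0.107, 0.113 and 0.12). Grm4 was closest to Tctn1, Gtf3c1 and Ptk7 (0.0865, 0.0906 and 0.091), and Grm5 to Eml5, Rbm26 and Ppp1r9a (0.0707, 0.0707 and 0.0711).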

How the data were processed

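Per the labels' protocols, RNeasy columns gave the RNA and a stranded TruSeq mRNA kit the libraries. The submitters' processing notes name StringTie, while its version, the aligner and the counting settings were not given in the sources used here. On mm10, the authors deposited read counts and FPKM values per gene and per transcript, with the 8 naive and conditioned libraries in 1 pair of tables and the 4 extinction libraries in a separate pair. Transcript length in bases was deposited beside them, per the file headers. Gene counts were summed here from the deposited transcript counts, because 1 count column of the gene table was matched to no sample.

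The test of counts was the quasi-likelihood F test of edgeR 4.0.16 (R 4.3.3) with TMM scaling and filterByExpr, with Benjamini-Hochberg adjustment over all genes or transcripts and a threshold of 0.05. The additive model of strain, region and condition left 4 residual degrees of freedom, interactions 3, the extinction fit of strain and region 1, and the gap changes over 12 libraries 6. Transcript shares were tested with diffSpliceDGE. SE was the log2 fold change divided by the square root of F. The variance in F is drawn towards a trend over all genes, most strongly where few residual degrees of freedom are left. Code was tested on simulated data. Alternatives were RLE scaling, no filter, DESeq2 1.42.0, limma 3.58.1 on log2(FPKM + 1) and log2(FPKM + 0.1), removal of a smooth trend with transcript length, and leaving out each library.

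All 6 receptor genes were named. From each list up to 4 genes per comparison were named, those with the largest changes among calls whose CPM averaged at least 1, with Glul named besides. The genes, lists and tests were chosen with earlier results of these data known.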

Additional observations from a re-analysis of the deposited data

How the results depend on the processing

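No paired analysis was possible because the labels give every library the replicate number 1, so that groups share fewer than 2 numbers, and do not say which libraries came from the same mice. The pairs named in the text only match libraries by strain, region or condition. How many of all genes keep 1 direction over every such pair is not given here.

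The 4 receptor calls for region in naive and conditioned mice passed under RLE scaling, no filter, DESeq2, limma on either FPKM scale and removal of the length trend. The FPKM scales moved the median region effect of all genes to -0.08 and -0.11, so directions near 0 depend on the scale. Grm3 turned from 0.03 to -0.069 and -0.074, values near that shift, and limma added Grm7 (-0.17 on either scale) as 1 more call. Over all genes the region calls were split 3778 higher and 3809 lower in BLA by edgeR and 2866 and 5270 with limma on log2(FPKM + 1), and the strain calls 2021 and 1691 in S1 by edgeR and 1396 and 2114 with limma.

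Between strains, the count of receptor genes fell from 4 to 2 when the length trend was removed, and Grm5 turned to -0.0053 (edgeR adjusted p = 0.972). Grm4 also lost its call without the filter and with limma. Grm8, which passed in none of these fits, turned to -0.0065 and -0.011 on the FPKM scales. Leaving out 1 library gave 0 to 4 receptor genes, with 4 only without the naive B6 BLA library, 3 without conditioned S1 BLA, 2 without conditioned S1 CeA, 1 without conditioned B6 BLA, naive B6 CeA or naive S1 BLA, and 0 without conditioned B6 CeA or naive S1 CeA. Grm2 then ranged from -0.31 to 0.088, with 0.088 without naive B6 CeA and 0.068 without naive S1 CeA, and Grm8 from -0.10 to 0.17, turning to -0.078 without naive S1 BLA and -0.10 without conditioned S1 CeA. The strain effects of Grm3, Grm4, Grm5 and Grm7 kept their sign in all 8 of these fits. Genes called over the whole table numbered 1489 to 5227 for strain and 6206 to 7666 for region, where 4 receptor genes passed each time. Receptor transcripts called for region numbered 4 to 6.

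Counts near 0 moved most with the tool. For conditioning, DESeq2 called 21 genes, and leaving out 1 library gave 0 to 1. For strain and region, 1 gene passed without the filter, 116 by DESeq2, 14 and 3 with limma on log2(FPKM + 1) and log2(FPKM + 0.1), and 1 to 13 with 1 library left out. For strain and conditioning DESeq2 called 9, limma 1 on either scale, and leaving out 1 library 0 to 10. For region and conditioning the counts were 17 by DESeq2, 6 by limma on log2(FPKM + 1) and 1 to 11. The change of the strain gap had 26 genes by DESeq2 and 0 to 9 with 1 library left out, and that of the region gap 47 and 2 to 14. For strain in extinction mice, 161 genes passed without the filter, 600 by DESeq2, of which 1 was a receptor gene, and 491 and 511 with limma on log2(FPKM + 1) and log2(FPKM + 0.1). Leaving out 1 of the 4 extinction libraries left no residual degrees of freedom, and the values then kept their sign except for Grm8 between strains (-0.01 to 0.21). The causes of these differences between tools were not tested.

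The lowest count of a receptor gene was 258 (Grm2 in naive S1 CeA), while Grm4 variant 2, with 0 to 25 counts, is limited by depth. With 1 library per group, no value carries a spread between mice.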
